A study of Mus musculus with 11 samples.

Results

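The core circadian clock genes were examined in bulk liver RNA of 11 male mice. The group was defined by name as *Bmal1*, *Clock*, *Per1*, *Per2*, *Per3*, *Cry1*, *Cry2*, *Nr1d1*, *Nr1d2* and *Dbp*, and 9 of these 10 genes have a row among the 13669 genes of the count table. *Dbp* was not analysed here. All animals were wild-type C57BL/6J males, fed regular chow and injected with recombinant adeno-associated virus (rAAV) whose insert was driven by a liver-specific promoter. The insert was a tough decoy in 6 animals (AAV-TuD), that is, a hairpin RNA that captures the miRNAs *miR-541* and *miR-379*, and a negative control sequence in the remaining 5 (AAV-NC). Per the methods of the study, mice given the decoy or control virus were killed after several hours without food, weeks to months after injection, and the general rule for fasted animals was sampling in the later light phase. The hour and interval of each single animal and any batch are not among the labels used here. The libraries read the 3′ end of polyadenylated RNA, so neither decoy nor miRNAs were measured, and the levels of the targeted miRNAs were not checked here.

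The hepatic clock is a transcriptional feedback loop. BMAL1 and CLOCK bind E-boxes as a pair and switch on the *Per*, *Cry* and *Nr1d* genes, and the PER and CRY proteins in turn inhibit BMAL1 and CLOCK. REV-ERBα and REV-ERBβ, the products of *Nr1d1* and *Nr1d2*, repress *Bmal1* through ROR elements, so that *Bmal1* and the *Per* and *Nr1d* transcripts peak at opposite times of day. In mouse liver *Per* and *Nr1d* transcripts are high in the later light phase, when *Bmal1* is low, whereas *Clock* varies little. Clock transcript levels therefore read out both the hour of sampling and the state of the loop.

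Motifs of this loop were located in the RefSeq promoters of the genes (GRCm38.p6, 250 bases before to 50 bases after each annotated start), as a description of the genes. Of the 10 genes, 9 have an entry, with 13 windows, and *Per2* has no entry. The E-box CACGTG was present for 2 of these 9 genes, the D-box (TTATGTAA or TTACGTAA) for 1 and the ROR element (TAGGTCA or TGGGTCA) for 1, on either strand. Over all genes of the promoter table the shares were 8.09% for the E-box, 1.23% for the D-box and 7.35% for the ROR element. Per window, the counts were 2, 1 and 1 of 13, against 7.15%, 1.06% and 6.45% of all windows. A match describes letters in a window and is not evidence of binding. The sequences below run 5′ to 3′ on the strand of the gene, with the motif in capitals. *Per3* holds 2 D-boxes, 205 and 158 bases before its start on the minus strand (chr4:151044839-151044894 and chr4:151044792-151044847). *Cry1* holds an E-box 60 bases before its start on the minus strand (chr10:85185085-85185138), and *Per1* holds one 166 bases before a start on the plus strand (chr11:69098759-69098812). *Bmal1* (*Arntl* in the RefSeq table) holds a ROR element 30 bases after an annotated start on the plus strand (chr7:113207530-113207558).
Per3, first D-box: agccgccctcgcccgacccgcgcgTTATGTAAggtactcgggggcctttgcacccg
Per3, other D-box: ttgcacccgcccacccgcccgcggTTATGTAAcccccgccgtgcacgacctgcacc
Cry1, E-box: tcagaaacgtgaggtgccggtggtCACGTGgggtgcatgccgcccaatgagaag
Per1, E-box: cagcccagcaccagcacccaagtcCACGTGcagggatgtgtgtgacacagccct
Bmal1, ROR element: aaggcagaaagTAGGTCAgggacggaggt

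None of the core clock genes passed the test for a difference between the groups. The fit covered 13334 genes, and 11.6% of them had a Benjamini-Hochberg adjusted p value under 0.05 (edgeR, quasi-likelihood). Of the 9 clock genes, 0 passed this threshold, and 0 had an unadjusted p value under 0.05. DESeq2 and limma-voom also called 0 of them. The log2 fold changes lay between -0.19 for *Cry1* and 0.13 for *Cry2*, with a median of 0.06, against a median of -0.002 over all genes tested. The smallest adjusted p value was 0.407, for *Cry1*. For 0 of the 9 genes were the groups without overlap, whereas 7.39% of all genes tested had no overlap. A p value that misses the threshold does not show equal levels, and the 95% intervals give the size of difference that these livers leave possible. All 9 intervals lay within a 2-fold difference in either direction, and 6 of them within a 1.5-fold difference.

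**Figure D1:**
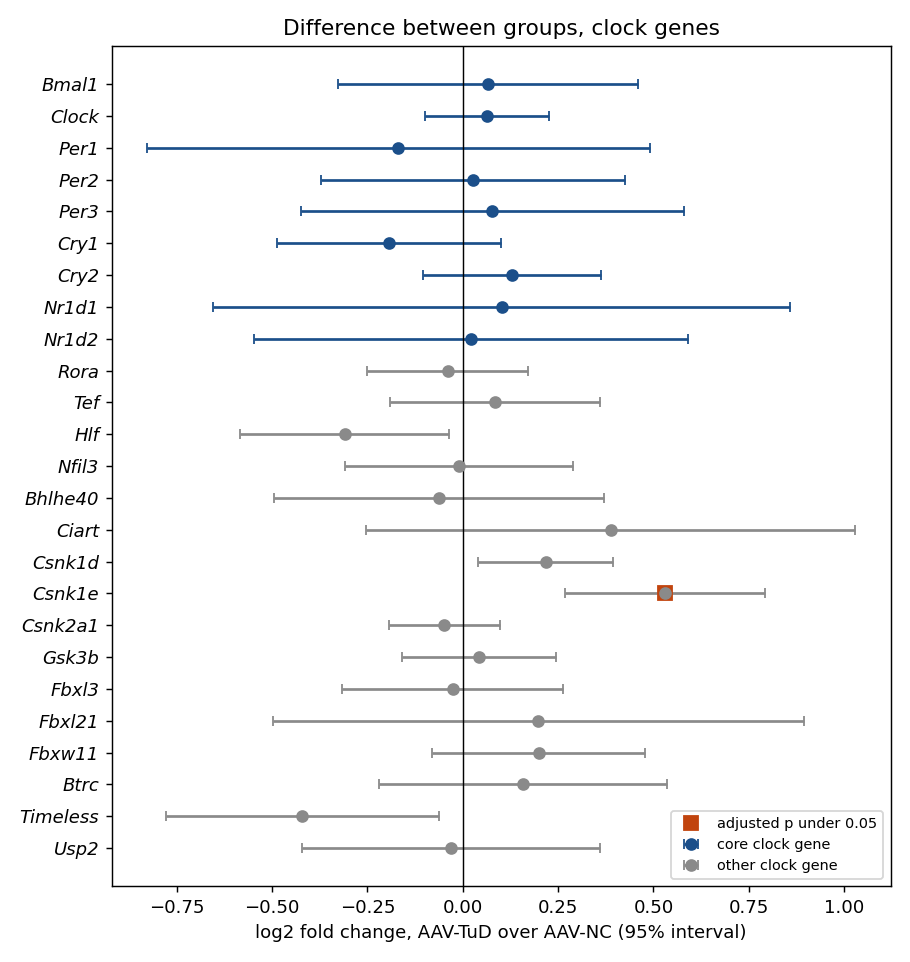
Log2 fold change (x axis, AAV-TuD over AAV-NC) with its 95% interval for the 9 core clock genes (blue) and other clock genes (grey); the red square marks the gene past an adjusted p value of 0.05. The intervals of the 9 core clock genes cross 0, and *Csnk1e* at 0.53 is the gene marked.

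Total counts per liver were between 8148531 and 12043959 reads, and levels are given as CPM (a count scaled to a common library total) on library sizes scaled by edgeR's TMM factors (0.667 to 1.24), where 1 CPM equals 7.94 to 12.4 reads of a liver. Reads of the abundant *Mup* genes took 38.6% of AAV-NC liver 7, 30.9% of AAV-TuD liver 3 and 28.4% of AAV-TuD liver 5, and between 8.09% and 18.7% elsewhere (two-sided exact permutation test between groups, p = 0.515). When TMM was left out and only library size used, the median over all genes moved to 0.23 on the log2 scale, and 95.1% of the genes called were higher with AAV-TuD, against 62.6%. The clock genes moved with it, to between 0.04 for *Cry1* and 0.36 for *Cry2*, and 0 of 9 were called. Hepatocyte markers (*Alb*, *Apoa1*, *Ttr* and others) summed to 41692 to 48494 CPM with AAV-NC and 50168 to 57051 with AAV-TuD, and 0 of 7 tested were higher and 1 lower (*Apob*) in edgeR's test, whereas DESeq2 and limma-voom also called *Alb* and *Ahsg* higher. The summed hepatocyte level thus did not overlap between the groups (two-sided exact permutation test, p = 0.00216 here and for stellate cells). Such a sum is weighted by the genes with most reads. The median log2 fold change of the 7 hepatocyte markers was -0.15, with values from -0.40 to 0.41, so the sum does not stand for a typical marker. Markers of several other liver cell types also moved with the groups. For sinusoidal endothelial cells 0 of 10 markers passed in edgeR, DESeq2 or limma-voom (0 had an unadjusted p value under 0.05 in edgeR). Over all genes tested, 7.24% were higher and 4.33% lower with AAV-TuD in edgeR. Of the markers tested, 7 of 10 were higher for stellate cells and 7 of 10 for Kupffer cells, and 0 were lower. For cholangiocytes 4 of 5 were higher, for neutrophils and monocytes 3 of 4, and 0 were lower. In AAV-NC and AAV-TuD livers, in this order, their summed levels were 229 to 307 and 396 to 510 CPM for stellate cells, 126 to 186 and 141 to 399 for Kupffer cells, 25.02 to 47.2 and 53.0 to 85.8 for cholangiocytes, and 24.7 to 41.1 and 42.1 to 103 for neutrophils and monocytes. In bulk RNA fewer cells of a type and less RNA per cell cannot be told apart, and the part of these cells in the clock gene levels was not tested.

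*Bmal1* (ENSMUSG00000055116, chromosome 7 of GRCm38 from 113207465 to 113314126) encodes the activator whose loss abolishes the rhythm. Its level was 7.16, 7.80, 8.08, 8.51 and 8.76 CPM in AAV-NC livers 1, 2, 6, 7 and 8. In AAV-TuD livers 3, 9, 4, 10, 5 and 11 it was 5.54, 6.23, 7.38, 8.62, 10.5 and 12.5 CPM. By the values as they stand, the AAV-TuD livers lay on both sides of the AAV-NC range, with livers 3 and 9 below it and livers 5 and 11 above it. The group means were 8.06 ± 0.626 CPM (SD, n = 5) and 8.46 ± 2.65 CPM (SD, n = 6), a log2 fold change of 0.07 (standard error 0.19, 95% interval -0.33 to 0.46, adjusted p = 0.869 from edgeR). The counts behind the AAV-TuD extremes were 59 reads in liver 3, with a 95% Poisson interval of 4.22 to 7.15 CPM, and 146 reads in liver 11, with 10.5 to 14.7 CPM. These intervals cover counting error only and do not overlap. Those of the AAV-NC livers all overlap, from 5.47 to 9.22 CPM in liver 1 (60 reads) up to 7.04 to 10.8 CPM in liver 8 (90 reads). The intervals of AAV-TuD livers 3, 9 and 5 each overlap with those of all 5 AAV-NC livers. That of AAV-TuD liver 11 overlaps with those of AAV-NC livers 7 and 8 only. Most AAV-TuD livers are thus not told apart from the AAV-NC livers beyond counting error.

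*Clock* (ENSMUSG00000029238, chromosome 5 from 76209868 to 76304792) encodes the partner of BMAL1. It had 38.6, 42.8, 40.2, 44.9 and 37.9 CPM in AAV-NC livers 1, 2, 6, 7 and 8. The AAV-TuD livers ran from 37.8 CPM in liver 10 through a median of 43.0 to 46.4 in liver 11. The groups covered nearly the same range, and the highest liver exceeded the lowest by 1.19 times with AAV-NC and 1.23 times with AAV-TuD. *Clock* had the narrowest interval of the group, with a log2 fold change of 0.06 (standard error 0.08, 95% interval -0.10 to 0.23, adjusted p = 0.652 from edgeR).

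The period genes encode the PER proteins, which carry the CRY proteins into the nucleus and close the loop. *Per1* (ENSMUSG00000020893, chromosome 11 from 69095217 to 69109960), the member that also responds acutely to glucocorticoids, had few reads, 20 to 68 per liver. It had 7.04, 2.64, 4.32, 6.76 and 2.53 CPM in AAV-NC livers 1, 2, 6, 7 and 8. With AAV-TuD it ran from 2.12 CPM in liver 5 through a median of 4.18 to 5.86 in liver 10. Within each group the highest liver exceeded the lowest by 2.78 times (AAV-NC) and 2.76 times (AAV-TuD). Its log2 fold change between groups was -0.17 (standard error 0.31, 95% interval -0.83 to 0.49, adjusted p = 0.787 from edgeR).

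*Per2* (ENSMUSG00000055866, chromosome 1 from 91415982 to 91459324) had 27.2, 22.4, 27.9, 33.9 and 29.5 CPM in AAV-NC livers 1, 2, 6, 7 and 8. With AAV-TuD it had 38.4, 27.4, 31.8, 36.3, 23.9 and 14.9 CPM in livers 3, 4, 5, 9, 10 and 11. AAV-TuD liver 11 had the lowest and AAV-TuD liver 3 the highest value of all 11 livers. Between groups the log2 fold change came to 0.03 (standard error 0.19, 95% interval -0.37 to 0.43, adjusted p = 0.947 from edgeR).

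*Per3* (ENSMUSG00000028957, chromosome 4 from 151003652 to 151044665) had 14.1, 7.55, 14.2, 12.5 and 10.9 CPM in AAV-NC livers 1, 2, 6, 7 and 8. In AAV-TuD livers 3, 9, 4, 10, 5 and 11 it had 18.7, 16.4, 14.5, 9.49, 9.35 and 6.67 CPM. This is the exact reverse of the order of *Bmal1* in the same 6 livers. Most neighbours in this order are not resolved from counting error. Poisson intervals of *Per3* overlap for all neighbours except livers 4 (12.3 to 16.9 CPM) and 10 (7.80 to 11.4 CPM). Those of *Bmal1* overlap for all neighbours. For both genes the intervals of the end livers 3 and 11 do not overlap. The difference between groups was 0.08 on the log2 scale (standard error 0.24, 95% interval -0.42 to 0.58, adjusted p = 0.88 from edgeR).

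**Figure D2:**
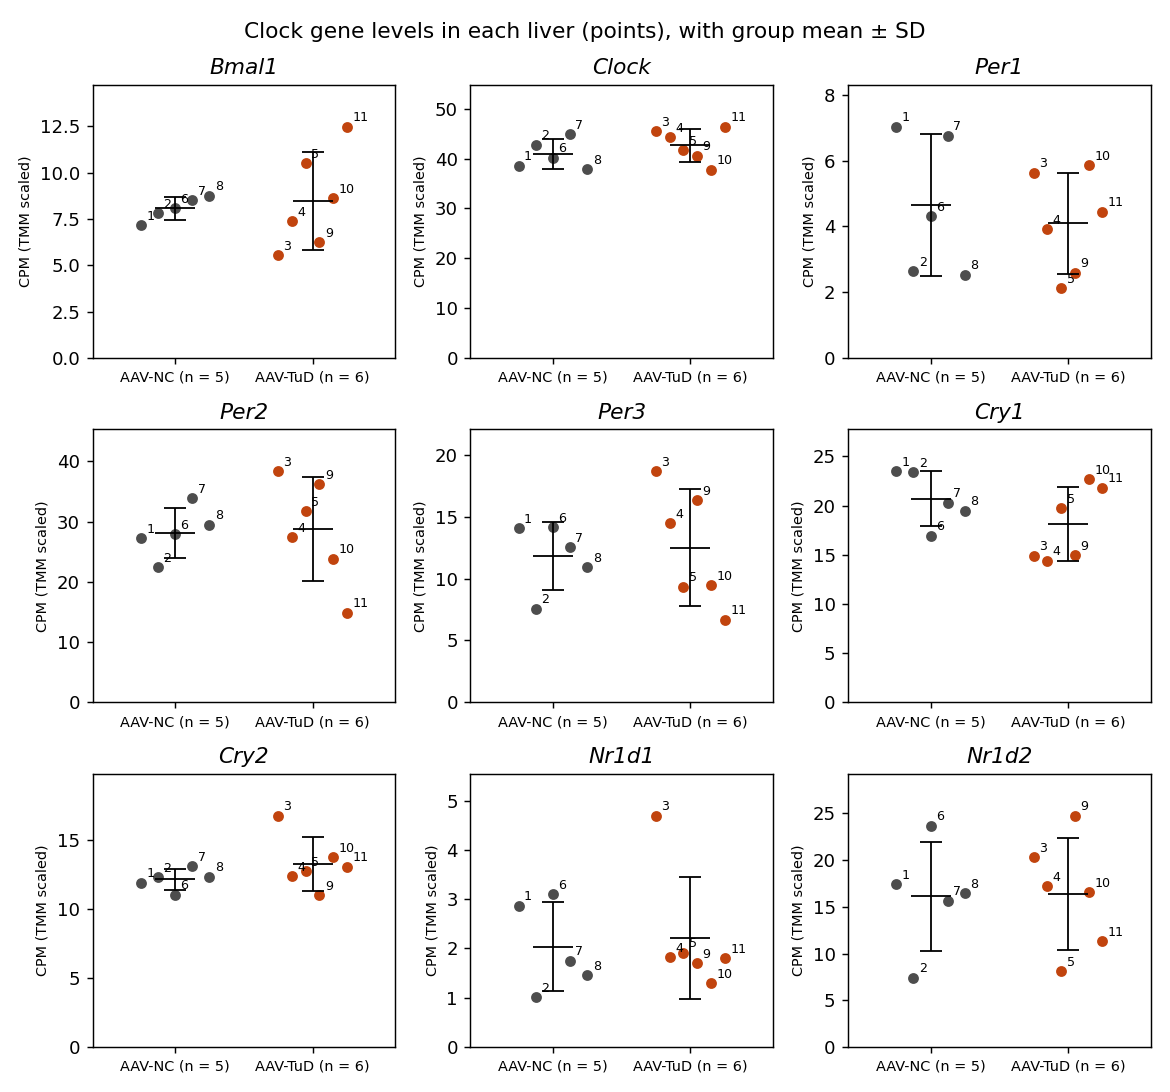
Level of each core clock gene in each liver (points, numbered by liver; y axis in TMM-scaled CPM from 0) with the group mean and SD (black bars). The 6 AAV-TuD and 5 AAV-NC livers overlap in all 9 panels, and AAV-TuD liver 11 has the highest *Bmal1* (12.5 CPM) and the lowest *Per2* (14.9 CPM) and *Per3* (6.67 CPM).

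The cryptochrome genes encode the main repressors of BMAL1 and CLOCK. *Cry1* (ENSMUSG00000020038, chromosome 10 from 85131700 to 85185064), whose transcript peaks later in the day than those of the other E-box genes, had 23.5, 23.4, 16.9, 20.3 and 19.5 CPM in AAV-NC livers 1, 2, 6, 7 and 8. It had 14.9, 14.4, 19.8, 15.0, 22.7 and 21.8 CPM in AAV-TuD livers 3, 4, 5, 9, 10 and 11. AAV-TuD livers 3, 4 and 9 lay below every AAV-NC liver, and the other 3 lay within the AAV-NC range. The means were 20.7 ± 2.79 CPM (SD, n = 5) and 18.1 ± 3.77 CPM (SD, n = 6), a log2 fold change of -0.19 (standard error 0.14, 95% interval -0.49 to 0.10, adjusted p = 0.407 from edgeR). *Cry2* (ENSMUSG00000068742, chromosome 2 from 92403646 to 92434043) had 11.9, 12.3, 11.1, 13.1 and 12.4 CPM in AAV-NC livers 1, 2, 6, 7 and 8. With AAV-TuD it ran from 11.01 CPM in liver 9 through a median of 12.9 to 16.8 in liver 3, and livers 3 and 10 (13.8 CPM) lay above the AAV-NC range. The log2 fold change of *Cry2* was 0.13 (standard error 0.11, 95% interval -0.10 to 0.36, adjusted p = 0.502 from edgeR), and it was 0.05 without AAV-TuD liver 3.

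The *Nr1d* genes encode nuclear receptors that repress *Bmal1*. *Nr1d1* (ENSMUSG00000020889, chromosome 11 from 98767932 to 98775333) had the fewest reads of the group, 8 to 50 per liver. It had 2.86, 1.01, 3.10, 1.75 and 1.46 CPM in AAV-NC livers 1, 2, 6, 7 and 8. AAV-TuD liver 3 had 4.70 CPM, while the other AAV-TuD livers had between 1.29 CPM in liver 10 and 1.91 in liver 5. The log2 fold change of 0.10 (standard error 0.36, 95% interval -0.65 to 0.86, adjusted p = 0.897 from edgeR) rested on that liver, since it was -0.26 without AAV-TuD liver 3 and not called in either fit. The exons of *Nr1d1* share 263 bases with *Thra* on the opposite strand, and the strand setting of the counting is not given in the sources used here, so that reads of the shared stretch cannot be assigned.

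*Nr1d2* (ENSMUSG00000021775, chromosome 14 from 18204054 to 18239127) had 17.4, 7.43, 23.7, 15.6 and 16.4 CPM in AAV-NC livers 1, 2, 6, 7 and 8. It had 20.3, 17.2, 8.07, 24.8, 16.6 and 11.3 CPM in AAV-TuD livers 3, 4, 5, 9, 10 and 11. The lowest liver of each group, AAV-NC 2 and AAV-TuD 5, stood at similar levels, and so did the highest, AAV-NC 6 and AAV-TuD 9. The groups differed by a log2 fold change of 0.02 (standard error 0.27, 95% interval -0.55 to 0.59, adjusted p = 0.973 from edgeR). A transcript of another gene, *AC170187.1*, which has no row in the table, is 96.1% identical to *Nr1d2* over 1385 bases.

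For each of the 9 genes the pooled SD of log2 CPM between livers of a group exceeded the log2 fold change between groups. The SD of log2 CPM within groups, pooled over both, was 0.62 for *Per1*, 0.60 for *Nr1d1*, 0.59 for *Nr1d2*, 0.49 for *Per3* and 0.40 for *Per2*, against a median of 0.24 over all genes tested. Since genes with few reads vary more, each gene was set beside the genes whose mean read number was within 2-fold of its own. The SD exceeded that of 98.3% of such genes for *Nr1d2*, 96.6% for *Per3*, 96.6% for *Per1*, 95.7% for *Per2*, 89.3% for *Nr1d1*, 83.4% for *Bmal1* and 81.9% for *Cry1*. *Cry2* and *Clock* lay at the quiet end, with a larger SD than 25.8% and 18.5% of such genes. These shares are a description of the 11 livers.

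The 2 groups also differed in how far their livers stood apart for some genes. For *Bmal1* the SD of log2 CPM was 0.11 in the AAV-NC livers and 0.44 in the AAV-TuD livers, for *Per2* 0.21 and 0.50, and for *Per3* 0.37 and 0.56. The AAV-NC value of *Bmal1* comes from 60 to 90 reads per liver. The Poisson intervals of these livers all overlap, so their levels are not told apart beyond counting error. For *Per1*, *Nr1d1* and *Nr1d2* the AAV-NC livers were as widely spread, with 0.68 against 0.56, 0.61 against 0.59 and 0.61 against 0.58. Single livers carried part of these values. Without AAV-TuD liver 11 the AAV-TuD SD of *Per2* was 0.28 and that of *Bmal1* 0.36, without AAV-TuD liver 3 that of *Nr1d1* was 0.20, without AAV-TuD liver 3 that of *Cry2* was 0.12, without AAV-NC liver 2 the AAV-NC SD of *Nr1d2* was 0.27, that of *Per3* 0.18 and that of *Per2* 0.14, without AAV-NC liver 6 that of *Cry2* was 0.06, and without AAV-NC liver 1 that of *Bmal1* was 0.07. The difference in spread between the groups was not tested.

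**Figure D3:**
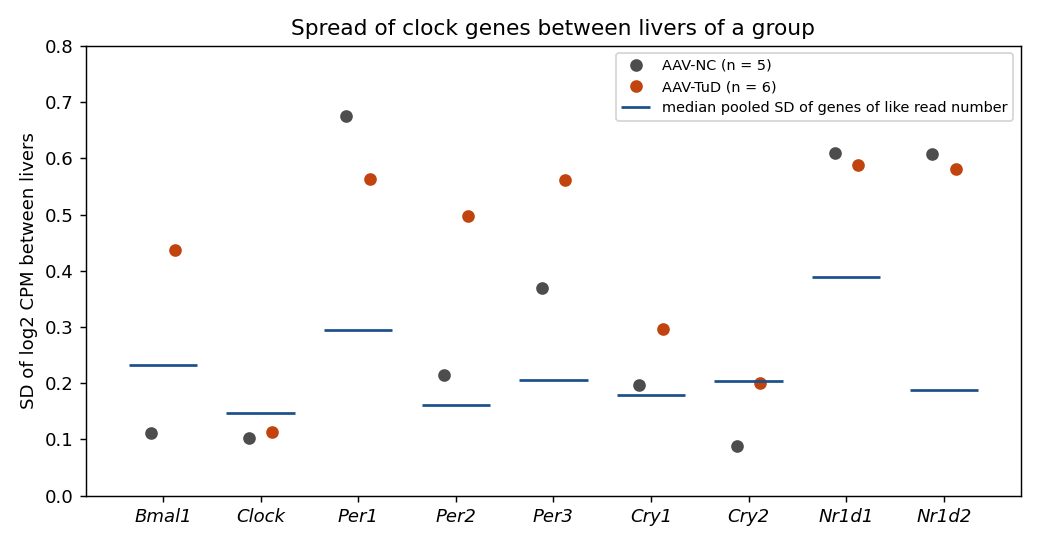
SD of log2 CPM between the livers of a group (y axis) for each core clock gene, AAV-NC in grey and AAV-TuD in red; the blue line is the median pooled SD of genes with a mean read number within 2-fold. *Bmal1* lies at 0.11 with AAV-NC and 0.44 with AAV-TuD, while *Clock* lies at 0.10 and 0.11. The AAV-NC livers had 60 to 90 *Bmal1* reads, and their Poisson intervals overlap.

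The order of the livers was then compared between *Bmal1* and the genes of the opposing arm of the loop. Over the 15 pairs that 6 AAV-TuD livers form, *Bmal1* and *Per3* had opposite orders in 15, *Bmal1* and *Per2* in 13, and *Bmal1* and *Nr1d2* in 13. *Per1* and *Nr1d1*, the genes with the fewest reads, lay near an even split, with orders opposite to *Bmal1* in 8 and 9 of 15 pairs. *Cry1* followed *Bmal1* more than it opposed it, with opposite orders in 4 of 15 pairs. *Per3* ran with *Per2* and with *Nr1d2*, with opposite orders in 2 of 15 pairs each. In the AAV-NC livers *Bmal1* varied little. All 5 of its Poisson intervals there overlap, so its order among these livers is not resolved from counting error. By the values as they stand, the order was opposite to that of *Bmal1* in 6 of 10 pairs for *Per3*, 2 for *Per2*, 5 for *Nr1d2*, 7 for *Per1*, 6 for *Nr1d1* and 8 for *Cry1*. In the same livers *Per3* and *Nr1d1* had opposite orders in 0 of 10 pairs, and *Per3* and *Nr1d2* in 1. Pairs share livers and are not independent, and many pairs in both groups differ by less than counting error. Among these are all AAV-TuD livers that are neighbours in the order of *Bmal1*, whose Poisson intervals overlap. The difference between the groups in this respect was not tested.

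**Figure D4:**
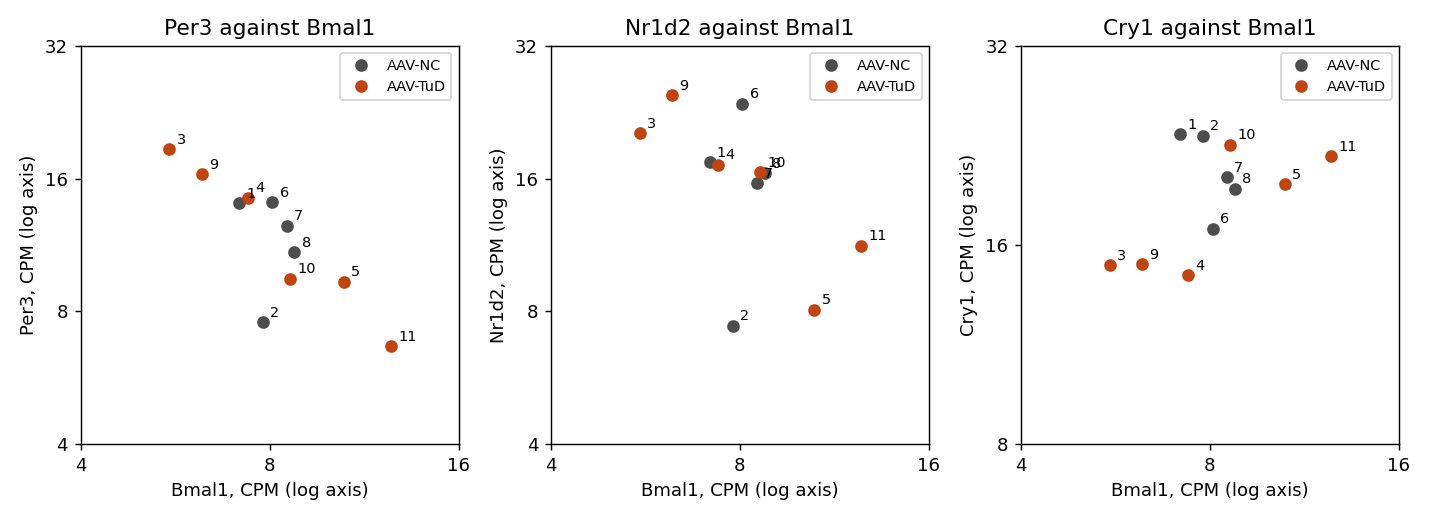
*Per3*, *Nr1d2* and *Cry1* (y axes) against *Bmal1* (x axes) in each liver, in CPM on log2 axes, numbered by liver. In the AAV-TuD livers (red) *Per3* falls from 18.7 to 6.67 CPM as *Bmal1* goes from 5.54 to 12.5 CPM, whereas AAV-NC liver 2 (grey) combines 7.55 CPM of *Per3* with 7.80 CPM of *Bmal1*.

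The ratio of 2 genes within a library does not depend on the scaling of libraries. The log2 ratio of *Per3* to *Bmal1* reads was 0.97, -0.05, 0.81, 0.55 and 0.31 in AAV-NC livers 1, 2, 6, 7 and 8. It was 1.75, 0.97, -0.17, 1.39, 0.14 and -0.90 in AAV-TuD livers 3, 4, 5, 9, 10 and 11. The AAV-TuD livers enclosed the AAV-NC livers on both sides, with means of 0.53 ± 1.01 (SD, n = 6) and 0.52 ± 0.40 (SD, n = 5). The corresponding means for *Per2* to *Bmal1* were 1.75 ± 0.90 and 1.79 ± 0.18, and for *Nr1d2* to *Bmal1* 0.91 ± 0.99 and 0.91 ± 0.61. These ratios are read only between livers and not as levels of one gene against another.

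The genes whose pattern over the 11 livers came nearest to *Bmal1* and *Nr1d1* were found by the root mean square difference of their log2 CPM deviations, among genes that averaged 50 reads or more. For *Bmal1* these were a gene without a symbol in the table (ENSMUSG00000097867, difference 0.14), *Pcnt* (0.15), which encodes the centrosomal protein pericentrin, and *4732465J04Rik* (0.17), against a median of 0.36 over 8371 genes. For *Nr1d1* they were *Homer2* (0.33), *Bhlhe40* (0.35), which encodes an E-box repressor of the clock, and *Sox5* (0.36), against a median of 0.57. *Bhlhe40* was lowest in AAV-NC liver 2, at 20.0 CPM, and highest in AAV-TuD liver 3, at 48.6 CPM, the livers with the lowest and highest *Nr1d1*. Since *Bhlhe40* was picked for its likeness to *Nr1d1* in these same livers, shared extremes follow from that choice. *Nr1d1* had 8 reads in AAV-NC liver 2 and 50 in AAV-TuD liver 3.

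Among 21 other clock genes listed from general knowledge, 17 were tested. *Npas2*, *Bmal2*, *Rorb* and *Bhlhe41* were not analysed here. Of the 17 genes, 1 was higher with AAV-TuD and 0 were lower (4 had an unadjusted p value under 0.05, and DESeq2 also called 0 lower), with a median log2 fold change of -0.01. Over all genes tested, 7.24% were higher and 4.33% lower, so that 1 of 17 higher is a share near that of all genes. The gene that passed was *Csnk1e*, which encodes casein kinase 1 epsilon, a kinase that marks PER proteins for degradation. *Csnk1e* had 5.01, 6.29, 6.97, 6.89 and 7.11 CPM in AAV-NC livers 1, 2, 6, 7 and 8, and ran from 7.86 CPM in liver 5 through the other AAV-TuD livers to 10.8 in liver 3. All 6 AAV-TuD livers lay above all 5 AAV-NC livers. Such a lack of overlap, in either direction, was found for 1 of the 17 genes and for 7.39% of all genes tested. In edgeR this was a log2 fold change of 0.53 with a standard error of 0.12 (adjusted p = 0.0121), and *Csnk1e* passed the same threshold in all 22 refits under other settings, with values between 0.45 and 0.77. *Csnk1d*, the related kinase, had a log2 fold change of 0.22 (adjusted p = 0.103 from edgeR) and *Timeless* one of -0.42 (adjusted p = 0.119 from edgeR). *Rora*, which encodes a ROR activator that opposes the REV-ERB proteins, had a log2 fold change of -0.04 (adjusted p = 0.853 from edgeR). *Tef* and *Hlf*, which like *Dbp* encode D-box activators, had 0.08 and -0.31 (adjusted p = 0.738 and 0.136 from edgeR), and the D-box repressor *Nfil3* had -0.01.

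Of 15 genes known to cycle in liver, 14 were tested. With AAV-TuD 0 were higher in edgeR's test and 0 in DESeq2, 1 was lower, and 3 had an unadjusted p value under 0.05, beside 7.24% higher and 4.33% lower over all genes tested. *Rgs16* was not analysed here. The lower gene was *Lpin1*, which encodes a phosphatidate phosphatase and coactivator that is also induced by fasting. *Lpin1* had 100.2, 58.7, 104.6, 88.1 and 26.5 CPM in AAV-NC livers 1, 2, 6, 7 and 8 and 30.9 to 64.3 CPM with AAV-TuD. The groups overlapped, since AAV-NC liver 8 had the lowest value of all. A log2 fold change of -0.89 (standard error 0.27, adjusted p = 0.0458 from edgeR) separated the means, and the call was lost without any 1 of AAV-NC livers 1, 6 and 7 or AAV-TuD livers 4, 5, 9, 10 and 11 (adjusted p up to 0.119). In DESeq2 its adjusted p value was 0.0642, and the gene that DESeq2 called lower was *Avpr1a*. In edgeR the call on *Lpin1* was also lost with library size alone (adjusted p = 0.0525). The same held with the number in the sample title as a linear term (adjusted p = 0.1175), and without AAV-NC liver 7 and AAV-TuD livers 3 and 5 (adjusted p = 0.0663). *Cyp7a1*, the rate-limiting enzyme of bile acid synthesis, had a log2 fold change of -0.77 (adjusted p = 0.0684 from edgeR). *Avpr1a* had -0.66 (adjusted p = 0.0512 from edgeR), and the D-box targets *Alas1* and *Por* had -0.72 and -0.09 (adjusted p = 0.323 and 0.743 from edgeR).

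Inputs that can shift clock genes acutely were read from 3 further lists, whose counts stand beside 7.24% higher and 4.33% lower over all genes tested. Of 10 genes responsive to glucocorticoids, 2 were higher and 0 lower (3 had an unadjusted p value under 0.05, and DESeq2 also called 0 lower). These were *Mt1* (log2 fold change 1.74, adjusted p = 0.00797 from edgeR) and *Mt2* (2.004, adjusted p = 0.0105 from edgeR), metallothioneins that bind zinc and copper and are induced by these metals as well. *Fkbp5* and *Tsc22d3*, genes activated directly by the glucocorticoid receptor, had -0.29 and -0.04 (adjusted p = 0.401 and 0.934 from edgeR). Of 8 immediate early genes tested of 10 listed, 3 were higher. *Jun* had 7.88 to 14.9 CPM with AAV-NC and 17.3 to 26.7 with AAV-TuD (log2 fold change 0.81, adjusted p = 0.00564 from edgeR). *Egr1* had a log2 fold change of 2.99 (adjusted p = 0.0229 from edgeR), with 45.5 CPM in AAV-TuD liver 11 and 2.16 to 11.04 CPM in the other AAV-TuD livers against 0.358 to 3.60 with AAV-NC. Without AAV-TuD liver 11 it was 1.98, and the call was lost without any 1 of AAV-NC livers 1, 6 and 7 (adjusted p up to 0.0578). It was also lost in limma-voom (adjusted p = 0.101) and in edgeR with the number in the sample title as a linear term (adjusted p = 0.0598). *Atf3* had 1.73 (adjusted p = 0.0387 from edgeR), and its call was lost without any 1 of AAV-NC livers 1, 2, 6 and 7 or AAV-TuD livers 4, 9 and 10 (adjusted p up to 0.0913). It was also lost in limma-voom (adjusted p = 0.0645) and in edgeR with the title number as a linear term (adjusted p = 0.068). Its reads were few, from 2 in AAV-NC liver 7 to 14 in AAV-NC liver 8, and from 10 in AAV-TuD liver 5 to 50 in AAV-TuD liver 4. The paper names *Atf3* as a known target of the *miR-379/miR-410* cluster and reports it raised by the decoy. Of 10 fasting genes 1 was higher, a share near that of all genes, and 0 were lower in edgeR and in DESeq2 (1 had an unadjusted p value under 0.05). This was *Pdk4*, a kinase that inhibits pyruvate dehydrogenase, at a low level of 0.376 to 1.64 CPM with AAV-NC and 1.55 to 2.19 with AAV-TuD (log2 fold change 0.94, adjusted p = 0.0443 from edgeR). Its call was lost without any 1 of 9 livers, and held without AAV-NC liver 2 or AAV-TuD liver 3. It was also lost without AAV-NC liver 7 and AAV-TuD livers 3 and 5 together (adjusted p = 0.113 from edgeR). *Pck1*, which encodes the gluconeogenic enzyme PEPCK, had -0.07 and *G6pc* -0.21 (adjusted p = 0.916 and 0.579 from edgeR).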

How the data were processed

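Per the labels and the paper's methods, the authors made QuantSeq 3′ libraries from total liver RNA. Trimming was done with BBDuk, alignment with STAR 2.5.3a (GRCm38) and counting with Rsubread. The deposited values are counts of reads per gene, not normalized, of 13669 genes, each of which reaches 10 reads in 5 livers or more. The annotation, the strand setting and the treatment of reads matching several genes are not given in the sources used here. Positions are from GENCODE M21 (GRCm38), which holds all 13669 identifiers. *Bmal1* is *Arntl* in that annotation.

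The 13334 genes exceeding 10 reads in 5 or more livers entered the test in edgeR 4.0.16 in R 4.3.3 (quasi-likelihood, TMM, all 11 livers). The study used DESeq2 (1.38.3), and DESeq2 1.42.0 and limma 3.58.1 were alternatives here. Log2 CPM used a prior count of 2 and ratios a pseudocount of 0.5. Single values were compared over all 462 splits of the livers. Each liver is 1 male animal (AAV-NC n = 5, AAV-TuD n = 6), with 8148531 to 12043959 reads. CPM intervals are exact Poisson intervals and cover counting error only. Alternatives changed the scaling, the filter, the tool, the threshold or the livers. The script was tested on simulated data. The members and lists were chosen with earlier results of these data known. Lists covered other clock genes, cycling liver genes, glucocorticoid, immediate early and fasting genes and cell type markers (lymphocyte markers were not analysed here). Named were all members, the genes called in each list, and the nearest 3 patterns; other names were chosen after their values were seen. Planned ratios with *Dbp* and its nearest patterns were not computed. The ratios of *Per2*, *Nr1d2* and *Clock* to *Bmal1* were chosen with the data in view. The result of 1 gene of the lists is not reported here.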

Additional observations from a re-analysis of the deposited data

Results flagged for a closer look

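In 44 groups of values (the core clock genes, the genes called in the lists, 4 ratios and the *Mup* share, each per treatment group), 5 had 1 liver far from the others, by the distance to its closest neighbour as a share of the group's whole range. The limit used flags about 1 in 20 groups of independent, normally distributed values, and here it flagged 11.4%. The ratios here share *Bmal1*, and some genes entered because they were called. The 1 in 20 is therefore not a chance rate for these groups. Among the core clock genes the flagged liver was AAV-TuD liver 3 for *Nr1d1*, the highest of its group, with a ratio of 0.818. Liver 3 was also the highest AAV-TuD liver for *Lpin1* (0.699). *Egr1* was highest in AAV-TuD liver 11 (0.795) and *Pdk4* in AAV-TuD liver 4 (0.751). The share of *Mup* reads was highest in AAV-NC liver 7 (0.804).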

How the results depend on the processing

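The 9 core clock genes had 0 calls in all 22 refits at an adjusted p value of 0.05, and the smallest adjusted p value among them was 0.215, with library size alone. Their directions were less stable, since most values lie close to 0. With library size alone *Per1* was 0.11 and *Cry1* 0.043 on the log2 scale. With limma-voom *Per2* was -0.025. With the number in the sample title as a linear term *Bmal1* was -0.065 and *Nr1d2* -0.018. Without AAV-NC liver 7 and AAV-TuD livers 3 and 5, *Per1* was 0.034, *Per2* -0.063 and *Nr1d1* -0.35. Leaving out 1 liver at a time, the values ran from -0.078 to 0.16 for *Bmal1*, from -0.33 to 0.029 for *Per1*, from -0.071 to 0.17 for *Per2*, from -0.069 to 0.21 for *Per3*, from -0.26 to 0.31 for *Nr1d1* and from -0.16 to 0.20 for *Nr1d2*. *Clock* and *Cry2* stayed positive under each of these settings, and *Cry1* negative under each but library size alone.

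Counts over all genes moved most at an adjusted p value under 0.01 (403 higher and 152 lower, against 966 and 577) and with library size alone (71 lower). With each liver left out they were 675 to 1115 higher and 337 to 714 lower. Among the cycling output genes the number lower was 2 with DESeq2's size factors or without *Mup* genes, 3 with limma-voom, 0 with library size alone, with the title number or at 0.01, and 0 to 2 with each liver left out. The immediate early genes higher were 1 with limma-voom, with the title number or at 0.01, and 1 to 4 with each liver left out. The fasting genes higher were 2 with library size alone, 0 without AAV-NC liver 7 and AAV-TuD livers 3 and 5 or at 0.01, and 0 to 1 with each liver left out. At 0.01 there was 1 glucocorticoid gene higher and 0 other clock genes. With each liver left out, 0 to 1 glucocorticoid gene and 0 to 1 other clock gene were lower. The stricter threshold leaves fewer calls by construction, and the cause of the other moves was not tested. The ratio of *Dbp* to *Bmal1* was not run. No paired analysis was possible because the groups share no replicate number.

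Counting error limits *Nr1d1* and *Per1*, whose lowest livers had 8 and 20 reads. It also limits the order and spread of *Bmal1* in the AAV-NC livers, which had 60 to 90 reads. The order of neighbouring AAV-TuD livers in *Bmal1*, at 59 to 146 reads, is limited as well.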
